A study of Mus musculus with 12 samples.

Results

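The genes described here are the TRIM family (tripartite motif) ubiquitin ligases, measured in mouse peritoneal macrophages at rest, after activation with LPS and IFNγ, and after the same activation with emodin. Members were all genes whose symbol is Trim followed by a digit, with probes named by matching their accession to RefSeq. The RefSeq table holds 69 such genes, and 65 of them had a named probe. A gene counts here as detected on an array that flagged its probe as well above background. A member was kept if every array of some group detected it, which left 44 members among 13164 kept genes. Of these, 34 were detected on all 12 arrays, and the other 10 (Trim2, Trim9, Trim14, Trim16, Trim29, Trim30b, Trim43b, Trim65, Trim69 and Trim71) were missing on at least 1 array. The rule kept those 10 through the groups that detected them fully, which favours higher levels in those groups. Trim5, Trim23, Trim30c and Trim43a had no named probe and were not analysed here. Just outside the rule lay Trim50, detected on 3 control arrays, and Trim38, on 2 control arrays.

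Most TRIM proteins have a RING finger that recruits a ubiquitin-conjugating enzyme, and some members lack it. B-boxes and a coiled coil follow, and members differ in the domain that follows and picks the target. In macrophages many of them act in innate immunity. Some bind viral capsids or antibody-coated particles, some attach ubiquitin to RIG-I, MDA5, STING or their adaptors, and others restrain NF-κB and interferon signalling, while a separate branch (Trim24, Trim28 and Trim33) works in the nucleus as chromatin cofactors. A number of the genes encoding them carry interferon-response elements.

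Expression was measured on 12 one-colour Agilent arrays, 4 per group, with RNA of peritoneal macrophages from C57BL/6 mice that the titles call WT. All cells were plated, washed after 2 h to remove those that had not attached, kept overnight without serum and then treated for 20 h. The control group received vehicle. The LPS_IFNg group received 100 ng/ml LPS, a bacterial Toll-like receptor ligand, with 20 ng/ml IFNγ, the lymphocyte cytokine that acts with it to activate macrophages, and the LPS_IFNg_emodin group received the same with 50 µM emodin, a plant anthraquinone. Donor mice of the control group were 8 weeks old and those of both other groups 9 weeks. Control replicates 3 and 4 are labelled male and all other samples female. Samples of a group are described as biological replicates by the series text, which names polymorphonuclear cells of blood where the tissue label has peritoneal macrophages. No label ties a sample to 1 animal, and the p-values reflect only how far these samples spread.

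All control arrays were on 1 slide and all arrays of both other groups on another, so in any comparison with control the slide, the age of the mice and the treatment cannot be told apart. Emodin was compared with LPS_IFNg within 1 slide. Sex-linked genes went against the labels on 4 arrays: Xist was detected without any Y-linked signal on the control arrays labelled male, and replicate 3 of LPS_IFNg and of LPS_IFNg_emodin, labelled female, had Ddx3y and Eif2s3y signal and no Xist. Leaving out these 4 arrays left 21 of 44 members higher and 10 lower in LPS_IFNg than in control, beside 3978 and 4435 of all 13164 genes. With emodin it left 12 higher and 19 lower than without, beside 4497 and 4654 of all genes. Of the macrophage markers with a named probe, 8 of 9 (Adgre1, Csf1r, Itgam, Mertk, Fcgr1, Cd14, Lyz2 and Gata6) were detected on all 12 arrays, and Timd4 on the 8 arrays without emodin. Of 9 neutrophil markers, Ngp was detected on no array, Mpo and Ltf on 6, Cxcr2 on 3, and S100a8, Elane, Camp and Mmp8 on all 12. The 75th percentile of signal lay between 633 and 810 intensity units on the control arrays, 637 and 795 on the LPS_IFNg arrays, and 370 and 466 with emodin.

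Levels below are log2 signals minus the 75th percentile of the array. They compare arrays for 1 gene and do not rank genes against each other. Changes are differences of group means with their standard error, 4 arrays per group, and adjusted p-values are those of limma over all 13164 genes. A gene that passed an adjusted p of 0.05 is said to have risen or fallen. Because the RNA came from mixed cultures, fewer cells of a type and less RNA per cell cannot be told apart.

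With LPS and IFNγ, 21 of the 44 members rose and 11 fell, Trim71 among the rises without a detected array in either group. Over all genes 33.8% rose and 35.2% fell, and 68.9% changed in either direction. Among the rises, 14 members reached 2-fold, a size reached by 14.2% of all genes, and among the falls 4 members, beside 12.1% of all genes. The groups did not overlap for 30 members (64.3% of all genes). The median log2 change was 0.17 over the members and -0.04 over all genes. Among the 34 members detected on all arrays, 16 rose and 7 fell.

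**Figure D1:**
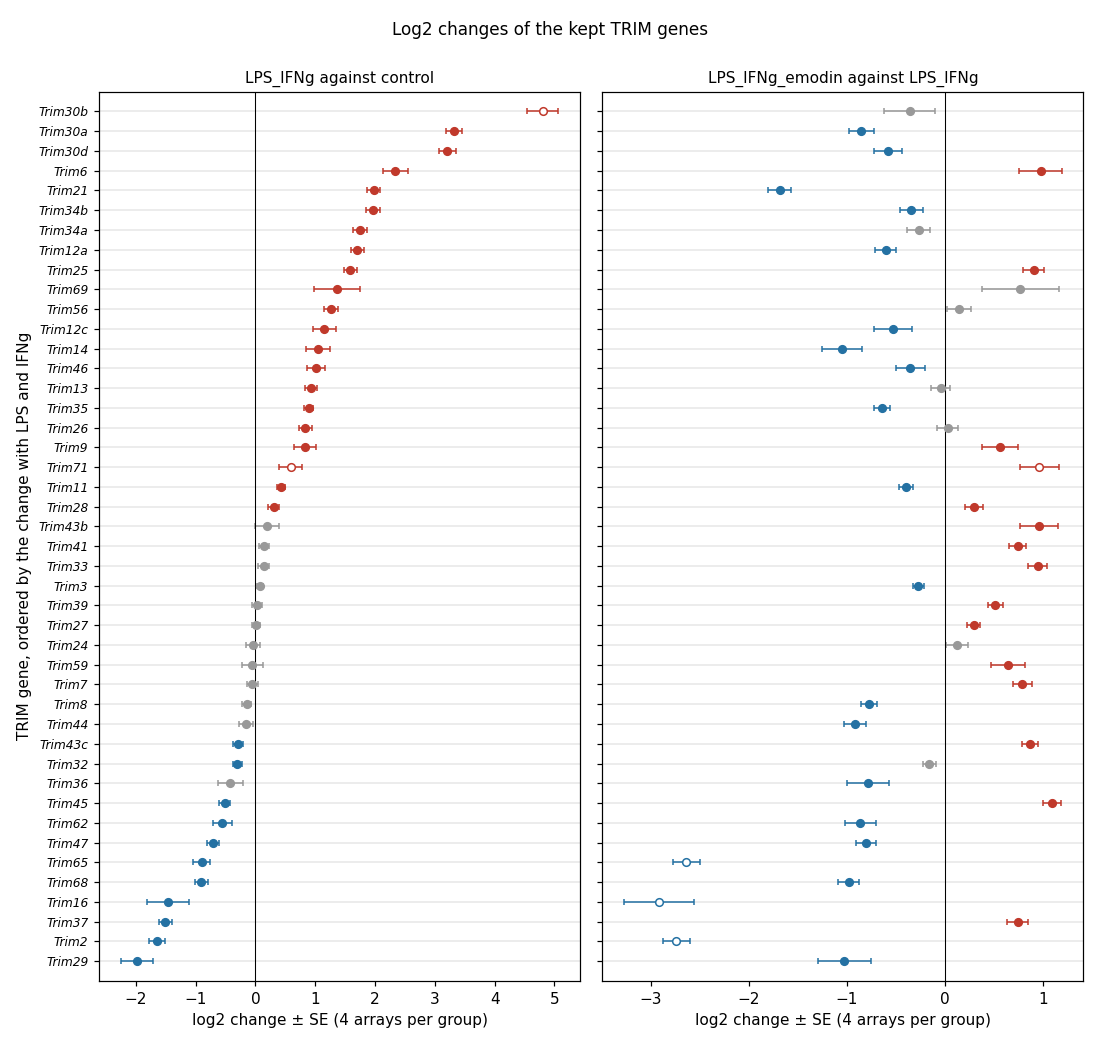
Log2 change ± SE of each of the 44 kept TRIM genes for LPS_IFNg against control (left) and LPS_IFNg_emodin against LPS_IFNg (right), with genes ordered by the left panel. Red points rose, blue points fell, grey points did not pass an adjusted p of 0.05, and open points were detected on no array of 1 of the groups. Trim30a and Trim30d rose by 3.32 and 3.21 in the left panel, and Trim21 fell by 1.68 in the right panel. The open points of Trim30b, Trim2, Trim16 and Trim65 lie at measured differences that rest on signals near background.

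Of the 14 members that rose 2-fold or more with LPS and IFNγ, 8 lay close together on chromosome 7. In the order of the RefSeq table (assembly GRCm38.p6), 11 protein-coding genes in a row are Trim6, Trim34a, Trim5, Trim12a, Trim34b, Trim12c, 1 gene of another family, Trim30b, Trim30c, Trim30a and Trim30d. All 8 of them that were kept rose by 2-fold or more, with a median log2 change of 2.16. Among these Trim30b passed the detection rule only through the treated groups, so that its rise was favoured by the rule. The 8 members are relatives of the retroviral restriction factor Trim5. The named probes of near-identical copies (Trim30a with Trim30b and Trim30d, Trim12a with Trim12c, Trim34a with Trim34b) may also take up each other's cRNA, and their probe sequences were not used here.

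The promoter windows of these members, 250 bases before to 50 after the annotated start, were searched on both strands for the core of an interferon-stimulated response element, written as GAAA, any 2 bases and GAAA. Windows of Trim12a, Trim12c, Trim21, Trim30a, Trim30d and Trim34a held it, 6 of 13 genes with a window among the 14 members that rose 2-fold or more. Of all genes with a window 3.99% held it in at least 1. It was in 1 of 5 such genes with smaller rises (Trim26), in none of 7 that passed no test, and in 1 of 7 that fell (Trim2, in 1 of its 5 windows). Windows were found for 32 of the 44 members, more than 1 where RefSeq has several starts. A match describes letters and is not evidence of binding. Shown here, 5′ to 3′ on the strand of the gene, are the windows of 4 members that rose and hold the core and of Trim25, which rose and does not hold these letters. Capitals mark the core, which reads TTTC, 2 bases and TTTC where it lies on the opposite strand. They come from RefSeq, assembly GRCm38.p6, at chr7:102565433-102565732 (minus strand), chr7:104465144-104465443 (minus), chr7:104507800-104508099 (minus), chr7:104244207-104244506 (plus) and chr11:88999153-88999452 (plus).
Trim21: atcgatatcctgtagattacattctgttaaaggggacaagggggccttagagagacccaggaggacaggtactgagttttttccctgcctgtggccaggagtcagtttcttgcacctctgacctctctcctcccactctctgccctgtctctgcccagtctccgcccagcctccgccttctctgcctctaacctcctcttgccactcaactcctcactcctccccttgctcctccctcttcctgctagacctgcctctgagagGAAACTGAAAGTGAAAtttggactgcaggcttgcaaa
Trim30a: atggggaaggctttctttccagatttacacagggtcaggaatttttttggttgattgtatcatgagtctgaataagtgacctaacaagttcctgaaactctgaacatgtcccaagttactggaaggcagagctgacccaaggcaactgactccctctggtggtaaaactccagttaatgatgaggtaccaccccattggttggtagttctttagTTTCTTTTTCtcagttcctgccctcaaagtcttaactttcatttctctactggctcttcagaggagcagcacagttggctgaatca
Trim30d: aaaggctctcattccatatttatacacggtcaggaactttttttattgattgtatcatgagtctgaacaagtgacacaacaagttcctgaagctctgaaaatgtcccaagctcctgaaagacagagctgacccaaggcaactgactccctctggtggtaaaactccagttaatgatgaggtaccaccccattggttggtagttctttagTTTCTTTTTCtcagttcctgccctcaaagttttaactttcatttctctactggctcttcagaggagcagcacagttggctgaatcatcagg
Trim34a: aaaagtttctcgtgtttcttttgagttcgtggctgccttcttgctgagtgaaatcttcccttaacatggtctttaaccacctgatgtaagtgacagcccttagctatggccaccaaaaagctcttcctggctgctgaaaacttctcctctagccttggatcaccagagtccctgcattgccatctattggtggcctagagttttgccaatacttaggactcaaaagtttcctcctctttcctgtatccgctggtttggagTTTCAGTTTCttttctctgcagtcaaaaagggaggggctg
Trim25: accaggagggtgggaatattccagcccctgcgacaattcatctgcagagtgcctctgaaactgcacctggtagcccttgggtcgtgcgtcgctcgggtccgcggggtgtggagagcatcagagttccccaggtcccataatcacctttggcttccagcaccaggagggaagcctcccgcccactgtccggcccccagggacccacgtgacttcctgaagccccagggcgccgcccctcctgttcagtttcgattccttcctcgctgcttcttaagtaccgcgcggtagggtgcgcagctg
The Trim21 window holds 2 overlapping matches, from base 14 to 23 and from 20 to 29 after the start. In Trim34a the match spans bases 11 to 20 after the start. The matches of Trim30a (bases -36 to -27) and Trim30d (-41 to -32) lie just before it, in windows that were identical at 277 of 305 aligned positions (90.8%). Windows of other copies were less alike, at 72.6% for Trim12a with Trim12c, 48% for Trim30a with Trim30b and 47.8% for Trim34a with Trim34b. The NF-κB letters GGGAA, any 1 base and TTCC were found in none of these 13 genes and in 1 member with a smaller rise, Trim28, beside 0.396% of all genes.

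**Figure D2:**
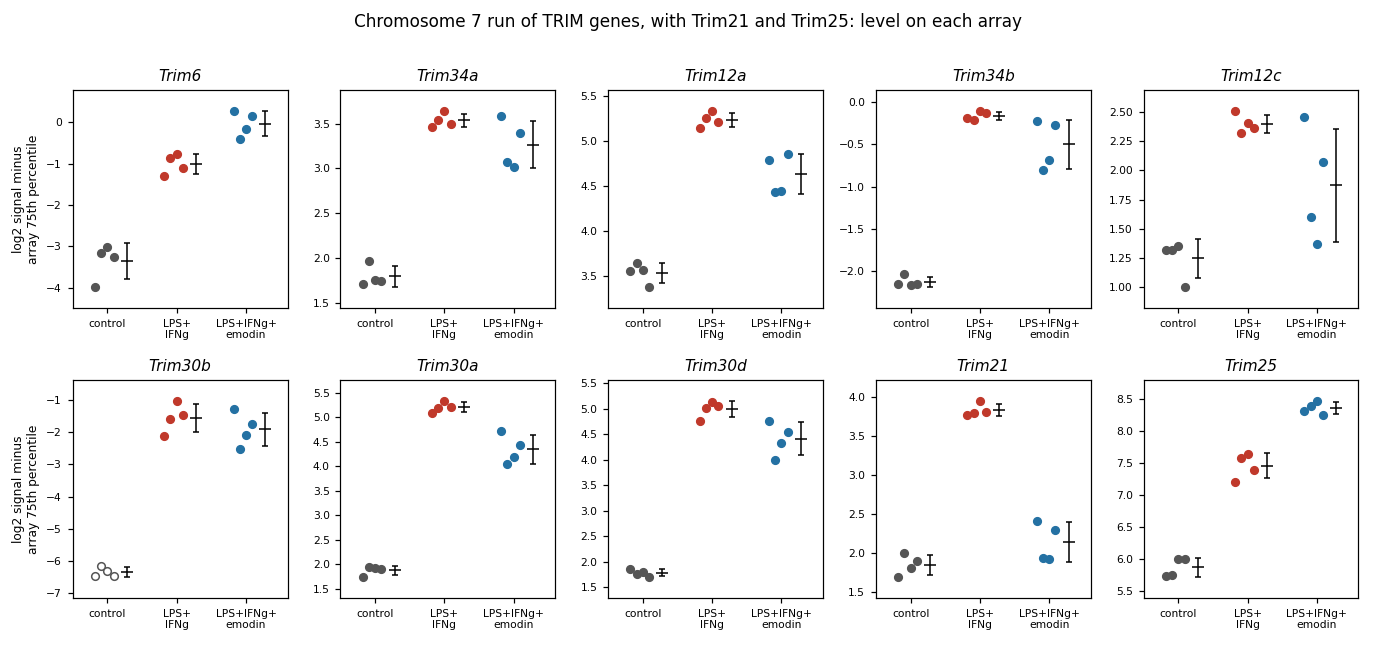
Level on each array (log2 signal minus the array's 75th percentile) of the 8 kept members of the chromosome 7 run, in chromosomal order, with Trim21 and Trim25. Filled points were detected, open points were not, and bars give mean ± SD of 4 arrays. In each panel all LPS_IFNg arrays lie above all control arrays. In the LPS_IFNg_emodin group Trim6 and Trim25 lie above LPS_IFNg, while Trim12a, Trim30a and Trim21 lie below it.

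Trim30a, which promotes loss of the TAB2 and TAB3 adaptors and so restrains Toll-like receptor signalling, had levels of 1.74, 1.95, 1.93 and 1.90 in control and 5.08, 5.18, 5.32 and 5.22 in LPS_IFNg. The log2 rise was 3.32 ± 0.13 (9.99-fold, adjusted p = 6.88e-10). With emodin the levels were 4.73, 4.05, 4.19 and 4.42, a change of -0.85 ± 0.13 (adjusted p = 7.91e-05). All emodin arrays thus stood below all LPS_IFNg arrays and above all control arrays. Its neighbour Trim30d stood at 1.87, 1.76, 1.80 and 1.70 in control, 4.77, 5.02, 5.13 and 5.05 in LPS_IFNg and 4.76, 4.00, 4.34 and 4.55 with emodin. It rose by 3.21 ± 0.14 and fell by 0.58 ± 0.14 with emodin (adjusted p = 0.00291), and the highest emodin array lay just under the lowest LPS_IFNg array. Trim30b was detected on no control array. Its LPS_IFNg levels were -2.11, -1.59, -1.03 and -1.45, at least 7.74-fold higher than control. The measured control levels of -6.47, -6.16, -6.32 and -6.47 gave a change of 4.81 ± 0.26 (adjusted p = 1.09e-08), and the bound itself was not tested. The emodin levels of -1.28, -2.52, -2.07 and -1.75 overlapped with those of LPS_IFNg (change -0.36 ± 0.26, adjusted p = 0.231).

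Trim12a and Trim12c are mouse relatives of the primate TRIM5 restriction factor. Trim12a had levels of 3.56, 3.64, 3.56 and 3.38 in control, 5.15, 5.26, 5.33 and 5.21 in LPS_IFNg and 4.79, 4.44, 4.44 and 4.86 with emodin. It rose by 1.70 ± 0.11 and fell by 0.60 ± 0.11 with emodin (adjusted p = 0.000283), and its groups did not overlap. Trim12c stood at 1.32, 1.31, 1.35 and 1.0 in control, 2.51, 2.32, 2.40 and 2.37 in LPS_IFNg and 2.45, 1.60, 1.37 and 2.07 with emodin. Its rise was 1.15 ± 0.19, and emodin arrays spread from just above the control range into the LPS_IFNg range. The fall with emodin (-0.53 ± 0.19, adjusted p = 0.0281) did not pass without LPS_IFNg replicate 1 (adjusted p = 0.0631) or 3 (0.0515), or without emodin replicate 2 (0.0815) or 3 (0.0825). The other 2 Trim12c probes, both kept, rose by 1.52 and 2.59 in place of 1.15.

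Trim34a and Trim34b, interferon-induced relatives of the same group, rose together. Trim34a levels were 1.71, 1.97, 1.76 and 1.74 in control and 3.47, 3.54, 3.64 and 3.50 in LPS_IFNg, a rise of 1.74 ± 0.12. Emodin levels of 3.58, 3.07, 3.02 and 3.40 gave a change of -0.27 ± 0.12 that did not pass (adjusted p = 0.0605), and passed under quantile normalisation (adjusted p = 0.0327) and without emodin replicate 1 (0.0078). Trim34b stood at -2.16, -2.04, -2.16 and -2.16 in control, -0.19, -0.21, -0.11 and -0.13 in LPS_IFNg and -0.23, -0.81, -0.69 and -0.27 with emodin. Its rise of 1.97 ± 0.12 separated the groups. The fall with emodin (-0.34 ± 0.12, adjusted p = 0.0226) was lost with the replicate number as a block (adjusted p = 0.052), without replicate 3 of LPS_IFNg (0.0512), and without replicate 2 (0.0673) or 3 (0.0681) of the emodin group.

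Trim6, which makes unanchored ubiquitin chains that help activate the kinase IKKε, was the member of the run that rose in both comparisons. It had levels of -3.98, -3.16, -3.01 and -3.27 in control, -1.31, -0.86, -0.77 and -1.11 in LPS_IFNg and 0.26, -0.40, -0.17 and 0.14 with emodin. The changes were 2.34 ± 0.21 and a further 0.97 ± 0.21 (adjusted p = 1.29e-06 and 0.0015), with no overlap between groups. Scaled to spike-in RNAs, the further rise did not pass (0.27, adjusted p = 0.321).

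Trim21 and Trim68, also on chromosome 7, lie apart from the run. Trim21, a cytosolic antibody receptor that destroys antibody-coated virus, stood at 1.70, 2.00, 1.81 and 1.90 in control and 3.77, 3.79, 3.94 and 3.81 in LPS_IFNg, a rise of 1.97 ± 0.12 (3.93-fold, adjusted p = 2.42e-08). With emodin its levels were 2.42, 1.93, 1.93 and 2.30, a change of -1.68 ± 0.12 (adjusted p = 1.31e-07), the largest fall among the members detected on all 12 arrays. Its emodin arrays overlapped with control. The difference from control was 0.29 ± 0.12 (adjusted p = 0.0367), which did not pass under quantile normalisation (adjusted p = 0.068) or without control replicate 1 (0.102) or 3 (0.0752), or emodin replicate 1 (0.112) or 4 (0.0999). Trim68 went the other way, falling by 0.90 ± 0.10 with LPS and IFNγ and by a further 0.98 ± 0.10 with emodin.

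Of the 13 kept members known for acting on RIG-I-like receptor, STING, Toll-like receptor or NF-κB signalling, 6 rose with LPS and IFNγ (Trim13, Trim14, Trim25, Trim26, Trim35 and Trim56), 3 fell (Trim47, Trim62 and Trim65) and 4 did not pass the test, beside 33.8% and 35.2% of all genes. Trim25, which attaches ubiquitin to RIG-I, had levels of 5.74, 5.75, 6.00 and 6.01 in control, 7.21, 7.59, 7.65 and 7.40 in LPS_IFNg and 8.33, 8.40, 8.47 and 8.26 with emodin. It rose by 1.59 ± 0.11 (adjusted p = 8.21e-08) and by a further 0.90 ± 0.11 with emodin (adjusted p = 1.17e-05), and each group lay wholly above the one before. Under quantile normalisation the rise with emodin was 0.52 (adjusted p = 0.00716). Trim56, a partner of STING and cGAS, stood at 2.32, 2.26, 2.57 and 2.64 in control and 3.45, 3.74, 4.01 and 3.64 in LPS_IFNg, a rise of 1.26 ± 0.12. Its emodin levels of 3.99, 3.83, 3.87 and 3.74 lay among those of LPS_IFNg (change 0.14 ± 0.12, adjusted p = 0.311).

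Trim14, a mitochondrial adaptor of MAVS that lacks a RING finger, had dim signals of -3.64, -4.04, -3.28 and -3.44 in control, -2.97, -2.35, -2.49 and -2.43 in LPS_IFNg and -3.15, -3.63, -3.94 and -3.73 with emodin. It rose by 1.04 ± 0.20 (adjusted p = 0.000649) and fell by 1.05 ± 0.20 (adjusted p = 0.00057), back to a range that overlapped with control. Under normexp background correction the change was -0.079 and did not pass (adjusted p = 0.518), so the emodin change of this dim probe depends on the background estimate. Trim13, an endoplasmic reticulum ligase, rose by 0.93 ± 0.10 and Trim26, which promotes loss of nuclear IRF3, by 0.83 ± 0.11. With emodin neither passed the test (-0.042 ± 0.10 and 0.029 ± 0.11).

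Trim65, the ligase of MDA5, fell at each step. Its levels were -2.26, -2.5, -2.15 and -2.33 in control and -3.64, -3.05, -3.03 and -3.08 in LPS_IFNg, a change of -0.90 ± 0.14 (adjusted p = 0.000125). With emodin no array detected it, which puts it at least 1.75-fold lower than LPS_IFNg. The measured levels of -5.92, -6.02, -5.66 and -5.75 gave a change of -2.63 ± 0.14 (adjusted p = 1.8e-08), and the bound itself was not tested. Trim8, which acts on TAK1 and SOCS1, did not pass with LPS and IFNγ (-0.15 ± 0.08, adjusted p = 0.124) and passed as a fall under quantile normalisation (-0.28, adjusted p = 0.0137) and without control replicate 2 (-0.20, 0.044). It went from 2.98, 3.20, 3.13 and 3.20 in LPS_IFNg to 2.29, 2.42, 2.37 and 2.31 with emodin, a change of -0.78 ± 0.08 without overlap. Trim27 stood at 3.76 to 3.93 in control and 3.80 to 3.88 in LPS_IFNg and rose by 0.29 ± 0.068 with emodin.

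Of the 3 kept chromatin cofactors, 1 rose with LPS and IFNγ, 2 rose with emodin and none fell, but scaled to spike-in RNAs Trim24 and Trim28 fell with emodin and Trim33 did not pass. Of all genes 33.8% rose with LPS and IFNγ and 35.1% with emodin, and 3 genes are too few to set against these shares. Trim28 (KAP1), the corepressor that silences endogenous retroviruses, had levels of 2.93, 2.73, 2.84 and 3.04 in control, 3.09, 3.27, 3.21 and 3.20 in LPS_IFNg and 3.27, 3.59, 3.56 and 3.52 with emodin. Its rise with LPS and IFNγ was 0.31 ± 0.09 (adjusted p = 0.00947), which did not pass under quantile normalisation (0.20, adjusted p = 0.0795), and its rise with emodin was 0.30 ± 0.09 (adjusted p = 0.0108). Trim24, a nuclear receptor cofactor, ranged from 1.04 to 1.28 in control, 1.02 to 1.15 in LPS_IFNg and 0.88 to 1.49 with emodin, and passed in no comparison. Trim33, a SMAD4 partner, went from -0.83, -1.01, -0.90 and -1.13 in LPS_IFNg to -0.15, 0.13, 0.05 and -0.13 with emodin, a rise of 0.94 ± 0.10 (adjusted p = 3.8e-06) after a change of 0.14 ± 0.10 that did not pass (adjusted p = 0.237).

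The 4 falls of 2-fold or more with LPS and IFNγ were those of Trim29, Trim2, Trim37 and Trim16. Trim2, an NHL-domain ligase studied in neurons, had levels of -0.20, -0.54, -0.23 and -0.12 in control and -1.69, -2.02, -2.14 and -1.83 in LPS_IFNg, a change of -1.65 ± 0.13 (adjusted p = 4.31e-07). It was detected on no emodin array, at least 4.27-fold lower than LPS_IFNg. The measured levels of -4.33, -4.75, -4.78 and -4.75 gave a change of -2.74 ± 0.13 (adjusted p = 9.27e-09). Trim16, which lacks a RING finger and takes part in the removal of damaged lysosomes, showed the same order, with -0.42, -0.36, -0.16 and -0.74 in control, -1.93, -1.82, -1.98 and -1.79 in LPS_IFNg and no detection with emodin (measured -3.68, -5.61, -4.33 and -5.55). It fell by 1.46 ± 0.36 with LPS and IFNγ (adjusted p = 0.00318) and was at least 4.13-fold lower again with emodin. The measured change with emodin was -2.91 ± 0.36 (adjusted p = 1.55e-05). A second kept probe of Trim16 changed by -1.40 with LPS and IFNγ and was also detected on no emodin array.

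Trim29, found mainly in epithelia, stood at 0.44, -0.11, -0.26 and 0.02 in control, -1.80, -1.91, -2.70 and -1.42 in LPS_IFNg and -3.02, -2.96, -3.47 and -2.47 with emodin. It fell by 1.98 ± 0.27 and by a further 1.02 ± 0.27 (adjusted p = 0.00496), and LPS_IFNg replicate 3 lay within the emodin range. Markers of mesothelium and fibroblasts were counted as well. Of 10 tested, 4 fell (Krt18 -2.15, Krt19 -2.29, Krt8 -1.23 and Col3a1 -1.89) and 3, not named here, rose with LPS and IFNγ, near the 35.2% and 33.8% of all genes. With emodin 6 fell and none rose (Pdgfra at least 11.1-fold lower, detected on no emodin array), beside 36.8% and 35.1% of all genes. The log2 of the summed level of 11 such markers ran from 4.37 to 6.46 in control, 6.38 to 7.34 in LPS_IFNg and 3.68 to 5.38 with emodin. Their part in the falls of Trim2, Trim16, Trim29 and Trim65 was not tested.

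Trim37, a ligase of peroxisome import, fell and then partly rose again: its levels were -0.49, -0.55, -0.60 and -0.37 in control, -2.02, -1.98, -1.89 and -2.15 in LPS_IFNg and -1.55, -1.0, -1.26 and -1.27 with emodin. The changes were -1.51 ± 0.11 and 0.74 ± 0.11 (adjusted p = 1.38e-07 and 6.23e-05), and the groups did not overlap. Trim45, which carries a filamin domain, went from -1.13, -0.83, -0.97 and -0.72 in control to -1.46, -1.37, -1.31 and -1.56 in LPS_IFNg and -0.32, -0.23, -0.42 and -0.36 with emodin, changes of -0.51 ± 0.094 and 1.09 ± 0.094. A second kept Trim45 probe, of another transcript, was detected on all control and emodin arrays and on no LPS_IFNg array. Trim32, an NHL-domain ligase of STING and muscle proteins, fell by 0.30 ± 0.07 with LPS and IFNγ. With emodin its change of -0.16 ± 0.07 did not pass (adjusted p = 0.061), and passed without emodin replicate 4 (adjusted p = 0.0465) or control replicate 4 (0.0453).

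Trim46, which organises the axon initial segment, stood at -1.90, -1.97, -2.21 and -1.47 in control, -0.99, -0.96, -0.83 and -0.73 in LPS_IFNg and -1.5, -1.05, -1.19 and -1.16 with emodin. It rose by 1.01 ± 0.15, and its fall with emodin (-0.35 ± 0.15, adjusted p = 0.0492) was lost on leaving out any 1 of 9 arrays, among them all 4 LPS_IFNg arrays (adjusted p = 0.0521, 0.0619, 0.0944 and 0.119 without replicates 1 to 4), emodin replicate 1 (0.141), 3 (0.0727) or 4 (0.0658), and control replicate 1 (0.062) or 2 (0.0595). Trim69 was detected on 1 control array, with levels of -3.01, -4.41, -4.67 and -4.36 in control, -1.67, -3.28, -3.08 and -2.96 in LPS_IFNg and -1.95, -2.05, -1.67 and -2.25 with emodin. Replicate 1 stood apart in both control and LPS_IFNg. The rise was 1.36 ± 0.39 (adjusted p = 0.00817). The emodin change of 0.77 ± 0.39 did not pass (adjusted p = 0.0973) and passed without LPS_IFNg replicate 1 (1.12, adjusted p = 0.0104) or control replicate 1 (0.77, 0.0393).

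**Figure D3:**
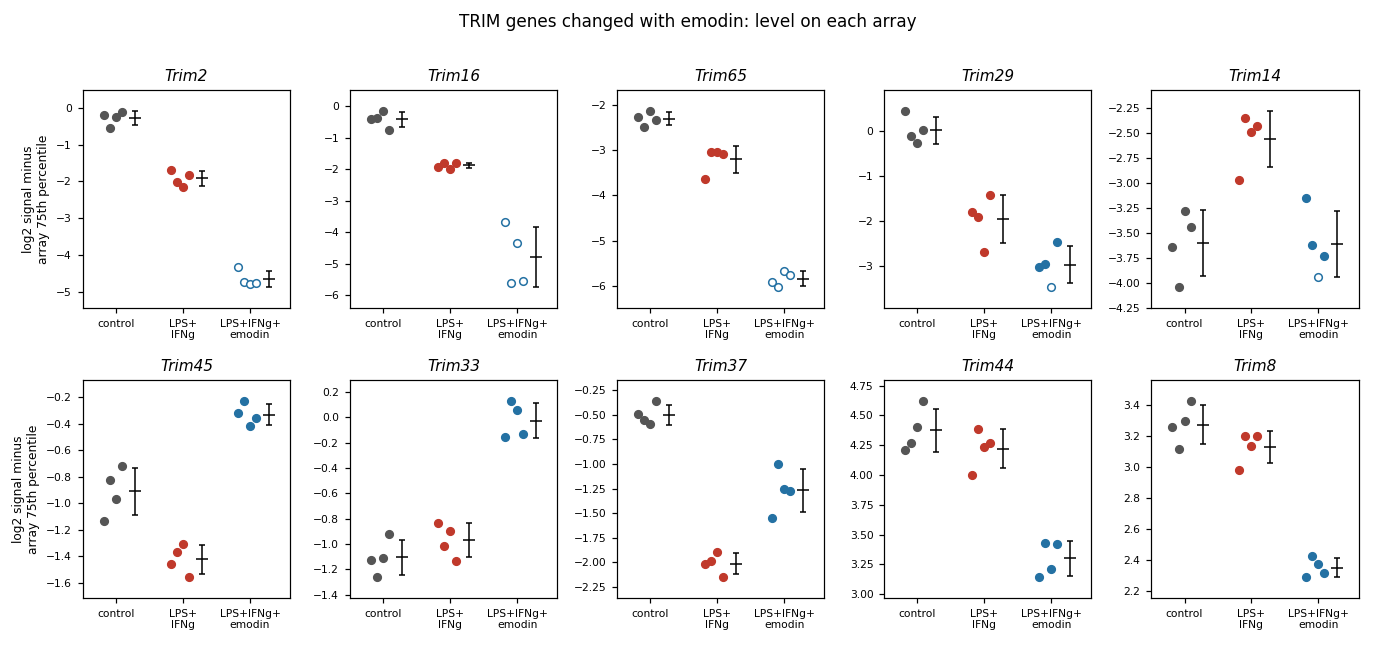
Level on each array (log2 signal minus the array's 75th percentile) of 10 TRIM genes that changed with emodin. Filled points were detected, open points were not, and bars give mean ± SD of 4 arrays. Trim2, Trim16 and Trim65 have open points on all emodin arrays, Trim45 and Trim33 lie highest with emodin, and Trim44 and Trim8 fell with emodin by 0.92 and 0.78 without overlap.

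With emodin against LPS_IFNg, 15 members rose and 21 fell, beside 35.1% and 36.8% of all genes (71.8% in either direction). A rise of 2-fold or more was found for 1 member, Trim45 (9.98% of all genes), and a measured fall of that size for 6, Trim2, Trim14, Trim16, Trim21, Trim29 and Trim65 (16.5%), though undetected signals bound the fall of Trim65 only at 1.75-fold or more. Of these 6, Trim2, Trim14, Trim16, Trim29 and Trim65 were not detected on every emodin array, so the detection rule favoured their falls. The groups did not overlap for 34 members (67.4% of all genes). The median log2 change was -0.27 over the members and -0.01 over all genes. Among the 34 members detected on all arrays, 12 rose and 16 fell, and only Trim21 fell by 2-fold or more. Of the 11147 genes detected on all arrays, 37.0% rose, 35.2% fell and 1383 genes fell by 2-fold or more. Both comparisons share the LPS_IFNg arrays, so that chance deviations of those arrays enter both with opposite sign, and members called in both are not counted here. The members that rose with emodin were Trim6, Trim7, Trim9, Trim25, Trim27, Trim28, Trim33, Trim37, Trim39, Trim41, Trim43b, Trim43c, Trim45, Trim59 and Trim71, the last of them not detected on any LPS_IFNg array and kept only through the emodin arrays. Those that fell were Trim2, Trim3, Trim8, Trim11, Trim12a, Trim12c, Trim14, Trim16, Trim21, Trim29, Trim30a, Trim30d, Trim34b, Trim35, Trim36, Trim44, Trim46, Trim47, Trim62, Trim65 and Trim68. The other 8 did not pass the test.

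Markers of other cells and of macrophages were counted beside all genes. Of these 33.8% rose and 35.2% fell with LPS and IFNγ, and 35.1% and 36.8% with emodin. Of 9 tested macrophage markers, 4 rose and 4 fell with LPS and IFNγ, and with emodin 6 fell, among them Fcgr1 (-2.77) and Timd4 (at least 6.42-fold lower, detected on no emodin array), and Itgam and Lyz2 rose. Of 7 tested neutrophil markers, 2 rose and 4 fell with LPS and IFNγ, and with emodin 5 rose, among them Mmp8 (1.29) and Elane (1.11), and 2 fell. The log2 of the summed level of the 9 macrophage markers ran from 9.35 to 9.37 in control, 8.81 to 9.02 in LPS_IFNg and 9.06 to 9.33 with emodin, and that of 9 neutrophil markers from 4.85 to 5.39, 4.70 to 4.96 and 4.98 to 5.28. Of 5 tested dendritic cell markers, 4 rose with LPS and IFNγ, Ccr7 by 5.55, and Cd209a fell, and with emodin 3 fell, among them Zbtb46 (-0.89). The log2 of the summed level of 6 such markers ran from -1.28 to -0.70 in control, 3.21 to 4.17 in LPS_IFNg and 2.56 to 3.80 with emodin. The B cell gene Cd79b changed by -2.56 with emodin, and Ms4a1 was at least 4.55-fold lower and detected on no emodin array, while neither passed with LPS and IFNγ. Of 2 tested T and NK cell markers 1 fell with LPS and IFNγ and 1 rose with emodin, and of 4 tested mast cell and eosinophil markers 1 fell with LPS and IFNγ. Their part in the changes of the TRIM members was not tested.

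The dim members were sensitive to the treatment of background. With normexp correction and an offset of 50, which pulls dim probes together, the measured changes with emodin, also where no emodin array was detected, became -0.75 for Trim2, -0.76 for Trim16, -0.505 for Trim65 and -0.44 for Trim29. The rises with LPS and IFNγ became 1.64 for Trim30b, 1.54 for Trim6, 0.63 for Trim14 and 0.63 for Trim69, and the fall of Trim65 became -0.54. All of these still passed the test. The smaller changes of Trim45 with LPS and IFNγ (-0.32) and of Trim34b with emodin (-0.22) passed too, while that of Trim46 with emodin (-0.14) did not (adjusted p = 0.23).

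The remaining members are given more briefly. Trim44, which lacks a RING finger, stood at 4.00, 4.39, 4.23 and 4.27 in LPS_IFNg and 3.14, 3.43, 3.21 and 3.42 with emodin and fell by 0.92 ± 0.11. Its change with LPS and IFNγ did not pass (adjusted p = 0.249) and passed as a fall under quantile normalisation (-0.32, adjusted p = 0.0427). Trim47 fell in both comparisons, from 3.37 to 3.61 in control over 2.65 to 2.93 in LPS_IFNg to 1.74 to 2.12 with emodin. Trim62, a ligase of CARD9, did the same, from -1.60 to -1.08 over -2.32 to -1.71 to -3.03 to -2.50, with changes of -0.55 ± 0.16 and -0.86 ± 0.16. For both genes all 3 groups were separate.

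Trim35 and Trim11 rose and then fell. Trim35 ranged from 5.44 to 5.77 in control, 6.41 to 6.52 in LPS_IFNg and 5.75 to 5.98 with emodin, with changes of 0.89 ± 0.081 and -0.64 ± 0.081. Trim11 changed by 0.43 ± 0.072 and -0.40 ± 0.072, and its emodin arrays (3.82 to 4.03) overlapped with those of control (3.82 to 4.02). Trim36 ranged from -0.64 to 0.42 in LPS_IFNg, where replicate 3 was the highest array, and from -1.30 to -0.97 with emodin, and fell by 0.78 ± 0.21. Its change with LPS and IFNγ (-0.42 ± 0.21, adjusted p = 0.0963) passed without that array (-0.66, adjusted p = 0.00138).

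Trim41, a ligase of viral nucleoproteins, was separate in all emodin arrays (6.66 to 6.88) from LPS_IFNg (5.99 to 6.06) and rose by 0.74 ± 0.084. With LPS and IFNγ it did not pass (0.14 ± 0.084) and passed without control replicate 4 (0.22, adjusted p = 0.018). Trim39 rose by 0.51 ± 0.077 with emodin and Trim3 fell by 0.27 ± 0.054, and neither passed the test with LPS and IFNγ. Trim43b and Trim43c, rodent members of a family known from preimplantation embryos, rose with emodin by 0.96 ± 0.20 and 0.87 ± 0.083, and Trim43b was detected on 2 of 4 LPS_IFNg arrays. The fall of Trim43c with LPS and IFNγ (-0.30) did not pass with normexp (-0.12, adjusted p = 0.327). Trim59 rose by 0.64 ± 0.17 with emodin. Its levels were -0.44, -1.42, -1.30 and -1.24 in LPS_IFNg, where replicate 1 stood above the others, and -0.48, -0.43, -0.49 and -0.41 with emodin. Its change with LPS and IFNγ (-0.049) became -0.27 and passed without LPS_IFNg replicate 1 (adjusted p = 0.0102). Trim71, an NHL-domain regulator of early embryos, was detected on the 4 emodin arrays and on no other array, at least 1.73-fold higher than in LPS_IFNg. Its rise with LPS and IFNγ (0.59 ± 0.20, adjusted p = 0.0182), between groups without a detected array, was lost without LPS_IFNg replicate 1 (adjusted p = 0.0539) or control replicate 4 (0.0553). Probes disagreed for Trim9, where the brighter probe rose with emodin (0.56 ± 0.18) and the probe of another transcript was detected on all LPS_IFNg arrays and on no emodin array. The mean of both, which rests partly on undetected signal, fell by 0.94 (adjusted p = 0.000171). Trim7 rose by 0.79 with emodin, and a second kept probe was detected on all control and emodin arrays and on no LPS_IFNg array. With LPS and IFNγ Trim7 did not pass (-0.053), while the mean of both probes, which rests partly on undetected signal, fell by 0.52 (adjusted p = 0.00335).

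Without the 4 arrays whose sex-linked genes went against their labels, the changes of Trim43c, Trim62 and Trim69 with LPS and IFNγ and those of Trim9, Trim12c, Trim28, Trim34b and Trim59 with emodin did not pass, and with LPS and IFNγ the changes of Trim36 and Trim41 did.

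The share of members that rose with emodin depends on how the arrays are scaled. The 75th percentile of signal was lower by 0.76 on the log2 scale on the emodin arrays (two-sided exact permutation test, p = 0.0286, the smallest that 4 against 4 arrays can give), while the mean of 8 spike-in RNAs differed by -0.055 (exact permutation p = 0.371). Scaled to the spike-ins, 1 member rose (Trim45, 0.39, adjusted p = 0.0314) and 30 fell, beside 1163 rises and 8889 falls among all 13164 genes, whose median moved to -0.71. The median of the members moved to -0.97. Trim27 and Trim28 then changed by -0.41 and -0.40, and Trim24, Trim26 and Trim56 by -0.58, -0.67 and -0.56, each past the test. Trim25 (0.20) and Trim33 (0.24) no longer passed, and Trim21 (-2.38) and Trim30a (-1.55) fell under both scalings. Which scaling reflects the RNA of a cell was not tested. The spike-ins differed by 2.5 between the slides of LPS_IFNg and control, so this scaling was not applied to comparisons with control.

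**Figure D4:**
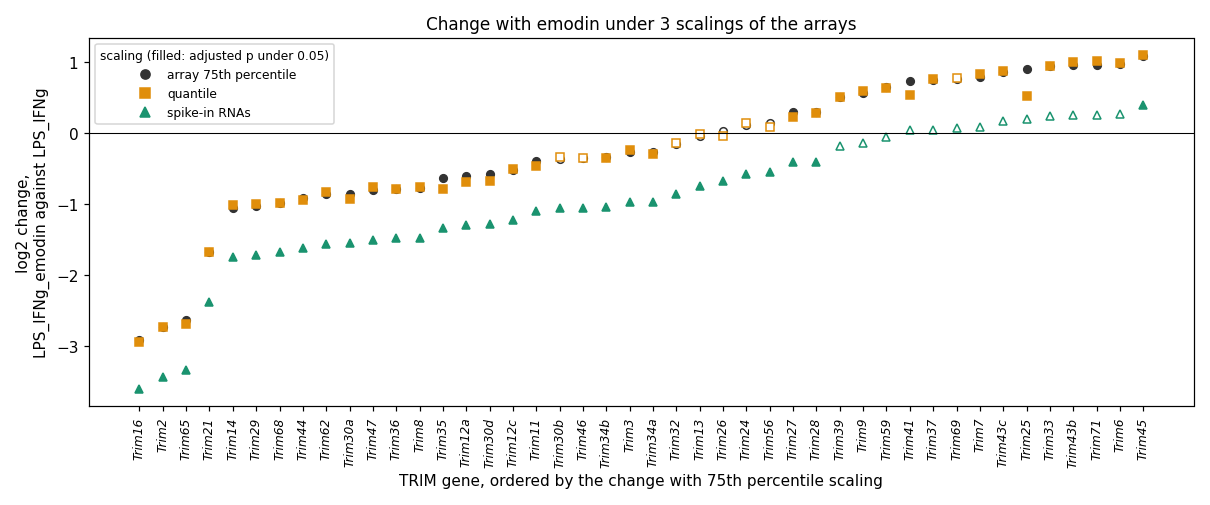
Log2 change of each of the 44 kept TRIM genes for LPS_IFNg_emodin against LPS_IFNg under 3 scalings of the arrays: 75th percentile (circles), quantile (squares) and spike-in RNAs (triangles). Filled symbols passed an adjusted p of 0.05. The triangles lie below the other symbols for every member shown, and Trim45 is the 1 filled triangle above 0.

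Against control, the emodin group had 28 members higher and 13 lower, beside 39% and 39.2% of all genes (78.1% in either direction). By 2-fold or more, 14 were higher (17.4% of all genes) and 9 lower (21.1%), and 38 did not overlap (72.3%). The median was 0.59 over the members and -0.0029 over all genes. All 8 kept members of the chromosome 7 run were higher than control, 7 of them by 2-fold or more, though Trim30b was kept only through the treated groups. Among the differences of 2-fold or more were those of Trim30b (at least 6.03-fold higher), Trim6 (3.31 ± 0.21), Trim30d (2.63 ± 0.14), Trim25 (2.49 ± 0.11) and Trim30a (2.47 ± 0.13), and, downwards, Trim2 (at least 13.4-fold lower), Trim16 (at least 11.4-fold lower), Trim65 (at least 3.26-fold lower) and Trim29 (-3.0 ± 0.27). Trim2, Trim16, Trim65 and Trim29 were kept only through control and LPS_IFNg, so the detection rule favoured their lower levels with emodin. Among the 34 members detected on all arrays, 9 were higher and 5 lower by 2-fold or more, beside 1901 and 1899 of 11147 such genes. Trim11, Trim14 and Trim24 did not pass. Smaller differences depended on the scaling: Trim27 was higher by 0.30, and by 0.087 under quantile normalisation (adjusted p = 0.284), and Trim35 was higher by 0.25 and then differed by -0.088 (0.431).

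Genes that work with TRIM ligases were counted from lists chosen with earlier results known, beside 33.8% rises and 35.2% falls among all genes with LPS and IFNγ (median -0.04) and 35.1% and 36.8% with emodin (median -0.01). Members of the family with other symbols rose with LPS and IFNγ in 4 of 4 cases: Mefv (pyrin, 3.39), Pml (2.42), Rnf135 (a cofactor of RIG-I, 1.52) and Cmya5 (0.58), and 1 of them, Cmya5, rose with emodin (1.47). Of 16 genes of ubiquitin and its activating and conjugating enzymes, 10 rose and 3 fell with LPS and IFNγ (median 0.57), with the largest values for Uba7 (2.52) and Ube2l6 (2.46), the E1 and E2 of ISG15. With emodin 6 rose and 6 fell (median -0.13), near the shares over all genes, with values of -2.62 for Ube2e2 and 1.24 for Ube2d3, and 1 and 10 when scaled to the spike-ins. Ube2n, which pairs with Ube2v1 to build the chains that signal, rose with emodin by 0.63.

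Of 23 sensors, adaptors and substrates on which TRIM ligases act, 17 rose and 3 fell with LPS and IFNγ (median 0.99), beside 33.8% and 35.2% of all genes. The largest rises were those of Irf7 (6.36), Ifih1 (MDA5, 3.70), Nlrp3 (3.45) and Ddx58 (RIG-I, 3.02). With emodin 10 rose and 8 fell (median 0.12), beside 35.1% and 36.8%, and with spike-in scaling 2 rose and 16 fell. Values were -3.03 for Sting1, -1.96 for Ifih1, -1.96 for Irf7 and -1.59 for Ddx58, all downwards, while the 10 rises are not named here. Among transcription factors of the interferon pathway, Irf1 (5.09), Stat2 (3.49), Irf8 (3.21), Irf9 (1.60) and Irf2 (0.60) rose with LPS and IFNγ. With emodin Stat2 (-1.16), Irf8 (-0.49) and Irf2 (-0.34) fell, Irf1 rose by 0.61 and Irf9 did not pass (0.11), whereas under quantile normalisation or spike-in scaling none of them rose. Of 10 tested partners of Trim28 and Trim33, 5 rose and 3 fell with LPS and IFNγ (median 0.087) and 3 rose and 4 fell with emodin (median -0.053), with values of 1.5 for Cbx1 and -1.26 for Hdac1, and 2 and 7 with spike-in scaling.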

How the data were processed

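RNA of 12 samples was measured on one-colour Agilent arrays. Scanner files were deposited with an intensity for each spot, made by Agilent Feature Extraction 10.7.3.1 as the submitters' processing notes name it. Their processed signal had background subtracted and no scaling across arrays, per the file headers. The deposited value table has log2 values. These equal log2 processed signals after quantile normalisation with each probe centred on its median (column medians -0.031 to 0.042), and their direction follows signal. In it, control columns 1, 3 and 4 held the scanner data of replicates 4, 1 and 3. It served as an alternative only.

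From the 59305 non-control spots of an array, outlier spots (78 to 415 per array) were left out, spots of a probe averaged, and the array's 75th percentile subtracted from log2 signals. Probes flagged above background by all 4 arrays of a group were kept. Accessions were matched without versions to RefSeq symbols (assembly GRCm38.p6, used for names and neighbours, since the array design is annotated on mm9), which named 27509 of 55681 probes. The kept probe with the highest mean stood for its gene, and 3352 genes had several. All 12 arrays entered 1 linear model per gene (limma 3.58.1, R 4.3.3; lmFit, contrasts, eBayes, 9 residual and 2.50 prior degrees of freedom), two-sided, with Benjamini-Hochberg adjustment over 13164 genes. The code was tested on simulated data. "At least" folds compare the brighter group's mean with the higher, per dim array, of its own signal and that array's lowest detected signal. Tests of such genes used the measured signals and not this bound. Arrays have no depth, and their number limits precision.

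Members and lists were chosen with earlier results of these data known. Values are given for every member with a called log2 change of 1 or more in LPS_IFNg against control or with emodin against LPS_IFNg and for 21 members listed whatever their values, of which Trim5 had no named probe. Other members and the genes of the lists, named for their largest changes, were chosen after their values were seen. Replicate numbers of LPS_IFNg and LPS_IFNg_emodin were taken as possibly pairing samples, because the deviations of same-numbered arrays from their group means correlated at 0.23, 0.28, 0.16 and 0.15. Arrays of unlike number in these groups gave -0.24 to 0.047. Control numbers were not (0.14, -0.070, -0.015 and -0.14 with LPS_IFNg). Yet control replicate 4 correlated at 0.31 with LPS_IFNg replicate 2 and at 0.30 with emodin replicate 2, so the pairing is uncertain. The main model had no block, and replicate numbers entered only the alternatives with a block. The background alternative used median spot signals, the column present, in place of mean signals. Some genes of the lists and 1 of 3 searched motifs are not reported here.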

Additional observations from a re-analysis of the deposited data

Results flagged for a closer look

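Among 87 sets of 4 arrays (29 named members in 3 groups), 6 had an array whose gap to the nearest other array was most of the range, and chance gives about 1 in 20. Trim12c was lowest on control replicate 4 at 1.0, beside 1.31 to 1.35 on the others. Trim24 was highest on the same array at 1.28, beside 1.04 to 1.07. Trim34b was highest on control replicate 2 at -2.04, beside -2.16. Trim65 was lowest on LPS_IFNg replicate 1 at -3.64, beside -3.08 to -3.03. Trim26 was lowest on LPS_IFNg_emodin replicate 4 at 3.82, beside at least 3.99 on the others. Trim2 was highest on LPS_IFNg_emodin replicate 1 at -4.33, beside -4.78 to -4.75, where no array was detected.

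Some probes of TRIM genes that were not used had signal outside the control group and on no control array. A Trim43c probe (A_66_P136749) was detected on 3 LPS_IFNg arrays. Each of 2 Trim6 probes (A_52_P85774 and A_55_P1955787) was detected on 2 LPS_IFNg_emodin arrays, and a Trim2 probe (A_55_P2032823) and a Trim61 probe (A_55_P1962329) on 1 LPS_IFNg array each.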

How the results depend on the processing

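The counts of members that rose and fell kept within 1.5 times of those given under the alternatives run, with 2 exceptions: with probes detected on all 12 arrays, 7 members fell with LPS and IFNγ, as fewer members were tested, and with spike-in scaling 1 rose with emodin. The median change with LPS and IFNγ was 0.089 in the deposited value table, 0.31 with no filter on dim probes, 0.052 with the percentile taken over probes detected on all arrays, 0.098 with quantile normalisation, 0.21 without replicate 3 of both treated groups and 0.31 without the 4 arrays that contradict their sex labels, an alternative chosen after seeing the data. With emodin it was -0.043 with no filter, -0.11 with normexp, -0.97 with spike-in scaling and -0.14 without replicate 3 of both groups, or without those 4 arrays. For emodin against control it was 0.46 with the mean of a gene's probes, 0.50 with no filter, 0.41 with the percentile over detected probes and 0.66 without the 4 arrays. With no filter the medians of all genes were 0.22, -0.050 and 0.27 in these comparisons, so with emodin the members then lay near all genes. The all-gene median with LPS and IFNγ was -0.13 under quantile normalisation and in the deposited value table. With emodin it was 0.016 with normexp and -0.71 with spike-in scaling. The cause of these shifts was not tested. Leaving out 1 array at a time gave medians of 0.094 to 0.23, -0.30 to -0.18 and 0.55 to 0.62 in the 3 comparisons in this order, with 20 to 21, 15 to 16 and 27 to 28 rises and 11 to 12, 18 to 22 and 13 falls. With LPS and IFNγ all genes split into 4446 rises and 4630 falls, 3887 and 5457 under quantile normalisation, 3799 and 5572 with the percentile over detected probes, where the median of all genes moved from -0.039 to -0.16, and 7836 and 4777 with no filter.

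Under every alternative that tested the member, other than those added after seeing the data, 19 of 21 rises and 10 of 11 falls with LPS and IFNγ kept their call, and with emodin 17 of 21 falls and 1 of 15 rises, or 14 of 15 leaving aside spike-in scaling. The alternative with probes detected on all 12 arrays tested only 34 of the 44 members, so it says nothing about the dimmer ones. Among signs called before or after the change of setting, 8 reversed with spike-in scaling for emodin against LPS_IFNg: those of Trim9 (-0.14), Trim24 (-0.58), Trim26 (-0.67), Trim27 (-0.41), Trim28 (-0.40), Trim39 (-0.19), Trim56 (-0.56) and Trim59 (-0.057). With the mean of its probes Trim9 turned to -0.94 there and to -0.42 against control. Also against control, Trim14 turned to 0.55 with normexp, and Trim35 to -0.088 with quantile normalisation and -0.096 in the deposited value table. With the replicate number as a block on the 8 arrays of the emodin slide, 15 members rose and 20 fell, Trim34b being lost. With the block on 12 arrays, 21 rose and 11 fell with LPS and IFNγ, and 27 were higher and 13 lower with emodin than in control, Trim21 being lost (adjusted p = 0.0659); no other call of the members changed under the block. Naming members by a gene name column was not run. Dim probes limit the 10 members missing on at least 1 array: Trim2, Trim9, Trim14, Trim16, Trim29, Trim30b, Trim43b, Trim65, Trim69 and Trim71.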

Other observations

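Within the emodin group, replicates 1 and 4 both had higher levels than replicates 2 and 3 for all 8 kept members of the chromosome 7 run and for Trim21, a set of 9 chosen after its values were seen. The same order held for 12 of the 44 members and for 29% of all genes. Trim12c spanned 1.37 to 2.45 within this group and Trim30a 4.05 to 4.73. Trim25 did not show that order, with 8.33, 8.40, 8.47 and 8.26. No label separates these replicates.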
